A study of Mus musculus with 21 samples.

Results

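Translation factors are the proteins that load a ribosome onto an mRNA, find the start codon and move the ribosome along the message. The genes examined here are the protein-coding genes whose mouse symbols begin with Eif1, Eif2b, Eif2s, Eif3, Eif4, Eif5, Eif6 or Eef, with pseudogenes and the sex-chromosome genes Eif2s3x, Eif2s3y and Eif1ax left out. The rule used gene names only and gave 59 genes of the 45706 in the table, of which 58 passed the count filter and were tested beside 23815 genes in all. Eif4e1b, a form of the cap-binding protein known from oocytes, had no count in any library and was not tested.

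The study compared myeloid cells sorted from the brains of male mice of 17 to 24 weeks on a C57BL/6 background after controlled cortical impact, a model of traumatic brain injury (TBI). Wild-type (WT) mice were set beside mice labelled Fgg390-396A (Fggγ390–396A, a change in the fibrinogen γ chain), a knock-in whose fibrinogen clots but lacks the motif that binds the CD11b/CD18 integrin. Microglia (CD45low CD11b+, 40000 cells) were collected from WT mice after sham surgery (craniotomy without impact) and from both genotypes 1 day (1 d) and 7 days (7 d) after injury, and CD45hi CD11b+ cells (25000 cells), labelled Macrophage (Mp), from both genotypes at 1 d. Each of the 7 groups held 3 libraries and each library pooled tissue from 2 brains, so the spread between libraries is a spread between pools. Fgg390-396A mice had no sham group. The day on which sham microglia were taken is not given in the sources used here, so sham may match neither time.

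Initiation begins when eIF2 brings the initiator tRNA to the small ribosomal subunit together with eIF1, eIF1A, eIF3 and eIF5, while the eIF4F complex (the cap-binding eIF4E, the scaffold eIF4G and the helicase eIF4A) prepares the mRNA. The 4E-BP proteins hold eIF4E away from eIF4G until the mTORC1 kinase phosphorylates them, and phosphorylation of eIF2 by the stress kinases slows initiation by blocking eIF2B, its nucleotide exchange factor. During elongation eEF1A delivers each charged tRNA, eEF1B recharges eEF1A with GTP, and eEF2 moves the ribosome on, a step that the kinase eEF2K switches off. Microglia are the resident macrophages of the brain and are known to enlarge and change their secreted proteins after injury.

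The libraries held 18896957 to 51875767 counts, with a median of 27001646, and 43 to 58.5% of the counts fell on ribosomal RNA genes. Levels are given as CPM, the count divided by the size of its library, after TMM scaling, a correction for differences in RNA composition between libraries. Transcript length had been divided out by the authors, so that levels of different genes can be set side by side. A scaled count of 3 corresponded to 0.0448 to 0.158 CPM across libraries. Scaled counts are not reads, so such limits cover counting error only, and that in part. The summed level of 10 microglia markers was 12200 to 13800 CPM in sham, 4250 to 5940 CPM in WT microglia at 1 d and 452 to 893 CPM in WT Mp libraries. The summed level of 10 markers of infiltrating myeloid cells was 9.75 to 563 CPM in sham, 223 to 894 CPM in WT microglia at 1 d and 4730 to 14600 CPM in WT Mp libraries. Among 10 neutrophil markers the sums were 1.94 to 630 CPM in sham, 123 to 775 CPM in WT microglia at 1 d and 3470 to 13000 CPM in WT Mp libraries, so the gate labelled Macrophage also carried neutrophil transcripts. Sums over the other marker lists did not exceed 9.02 CPM for neurons, 18.7 CPM for astrocytes, 71.1 CPM for oligodendrocytes, 21 CPM for endothelial cells, 5.65 CPM for lymphocytes and 35.6 CPM for erythroid cells in any library.

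The DNA upstream of the genes whose transcript levels moved most was read from RefSeq windows on the assembly GRCm38.p6, which held 43 of the 59 genes. The 250 bases before the start of the initiation factor genes Eif5a, Eif3a and Eif4a1, 3 of the genes with the smallest adjusted p-values 1 d after injury, are shown beside those of Eef2k, the gene with the clearest decrease. They lie at chr11:69921959-69922208 (minus strand), chr19:60790694-60790943 (minus strand), chr11:69672424-69672673 (minus strand) and chr7:120842581-120842830 (plus strand), in the same order. The genes themselves span chr11:69916714-69921958, chr19:60761117-60790658, chr11:69666936-69672423 and chr7:120842831-120907450 (GENCODE M21 on GRCm38), and Eef1g, for which the table held no window, spans chr19:8967041-8978479 on the plus strand. Each window is written 5′ to 3′ on the gene's strand, and capitals mark the letters searched for, on either strand, namely the E-box CACGTG, the cAMP response element TGACGTCA, CCAAT, the GC box GGGCGG and the TATA box TATAAA.
Eif5a: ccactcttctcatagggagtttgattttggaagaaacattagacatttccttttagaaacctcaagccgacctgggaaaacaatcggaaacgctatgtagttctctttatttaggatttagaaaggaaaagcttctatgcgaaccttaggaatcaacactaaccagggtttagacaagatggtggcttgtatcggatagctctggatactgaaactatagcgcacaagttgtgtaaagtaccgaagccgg
Eif3a: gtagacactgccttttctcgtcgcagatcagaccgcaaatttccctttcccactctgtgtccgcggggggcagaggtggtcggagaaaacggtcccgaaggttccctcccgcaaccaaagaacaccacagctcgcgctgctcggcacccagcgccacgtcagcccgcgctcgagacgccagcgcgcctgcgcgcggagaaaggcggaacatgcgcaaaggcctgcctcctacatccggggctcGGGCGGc
Eif4a1: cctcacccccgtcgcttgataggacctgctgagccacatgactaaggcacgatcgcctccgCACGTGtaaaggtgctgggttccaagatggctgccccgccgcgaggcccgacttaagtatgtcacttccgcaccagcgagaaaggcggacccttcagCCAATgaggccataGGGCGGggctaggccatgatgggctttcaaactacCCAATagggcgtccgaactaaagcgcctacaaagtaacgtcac
Eef2k: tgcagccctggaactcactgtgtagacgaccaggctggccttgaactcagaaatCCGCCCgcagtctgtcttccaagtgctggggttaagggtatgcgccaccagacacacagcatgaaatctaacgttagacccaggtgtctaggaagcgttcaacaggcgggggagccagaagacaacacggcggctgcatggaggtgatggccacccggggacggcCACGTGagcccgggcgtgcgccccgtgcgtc
None of the searched letters stood in the Eif5a window, and the Eif3a window held a GC box alone. The Eif4a1 window held an E-box, a GC box and a pair of CCAAT boxes, and that of Eef2k an E-box and a GC box.

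Over the 43 windows, GGGCGG was present in 30 (69.8%), against 32.7% of all 32851 RefSeq windows of this length, and CACGTG in 9 (20.9%), against 6.02%. CCAAT stood in 11 windows (25.6%, against 33.8% of all), TATAAA in 4 (9.3%, against 12.4%) and TGACGTCA in 0 (against 1.55%). The 43 windows are 1 per gene, while the 32851 are every window held, more than the 21519 protein-coding genes measured. They were not matched for gene type or level, so these shares are not like for like. The change at 1 d can be set beside the E-box as a description. Of the 9 with the E-box 6 rose and 1 fell in WT microglia 1 d after injury, with a median log2 fold change of 0.81, and of the 34 without it 18 rose and 1 fell, with a median of 0.94. Of the 30 with a GC box 14 rose and 1 fell, with a median of 0.70, and of the 13 without it 10 rose and 1 fell, with a median of 1.35. The 4 genes with a TATA box, Eef2, Eif2s1, Eif3b and Eif3f, rose, as did 20 of the 39 without it. These matches are descriptions of letters and not of occupied sites.

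To ask how injury changed the translation factors of microglia, WT microglia at 1 d were compared with sham. Most of the genes rose, among them 13 of 14 eIF3 subunits, both eIF2 subunits, all 4 eEF1B and eEF1E1 genes, and 1 each of the eIF4E family (Eif4e) and the 4E-BP genes (Eif4ebp1). In all, 35 of 58 rose and 2 fell by edgeR's quasi-likelihood test at a Benjamini-Hochberg adjusted p under 0.05. Over all tested genes 10.7% were called higher and 5.97% lower, and among the 5368 genes with more than 10 CPM on average 32.5% were higher and 14.3% lower. The median log2 fold change of the 58 genes was 1.08, with quartiles of 0.45 and 1.54, beside 0.03 for the 12302 genes over 1 CPM. With total counts in place of TMM 17 were higher and 5 lower, with a median of 0.32 beside −0.72. In 42 genes every injured library lay above every sham library and in 4 below (16.8% and 17% of all tested genes). Calls with smaller changes rested on single libraries, since Eif4g3 was not called without sham replicate 1, Eif4g2 without sham replicate 2 or Eif1 without WT 1 d replicate 3, and Eif1ad, Eif3j1 and Eif4h were lost in several such fits. The share of counts outside ribosomal RNA that fell on the translation factors, which does not depend on TMM, was 0.753 to 0.872% in sham and 1.19 to 1.31% in WT microglia at 1 d. In bulk libraries of this kind, a different mix of cells and a different amount of RNA per cell cannot be told apart, and 7 of the 10 microglia markers fell in the same comparison while 2 of the 10 infiltrating myeloid markers rose. The ribosomal RNA share was 43.4 to 47.8% in sham, 50.6 to 58.5% in WT microglia at 1 d and 51 to 55.7% at 7 d, and the TMM factors were 1.39 to 1.55, 0.741 to 1.11 and 0.958 to 1.02. The part of cell composition and of ribosomal RNA in the rise was not tested.

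**Figure D1:**
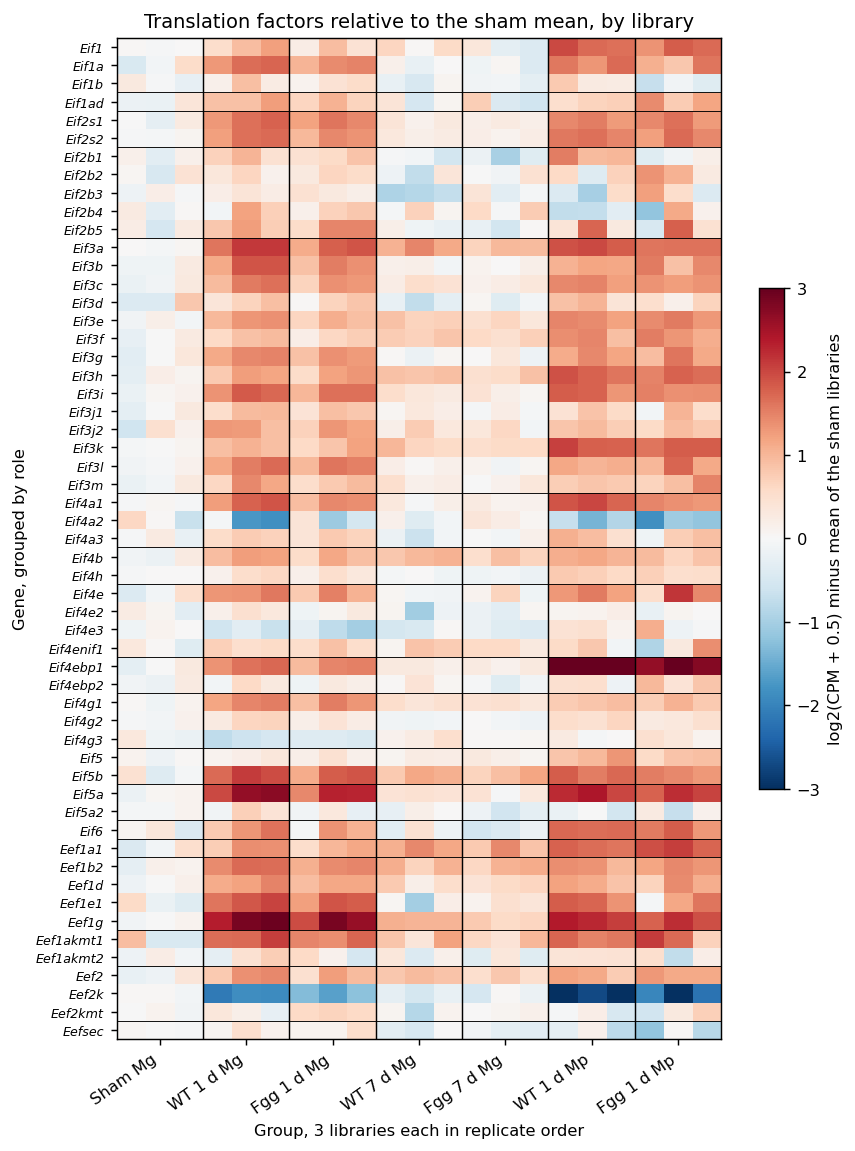
Level of the 55 translation factor genes over 1 CPM on average (rows, ordered by role) in each of the 21 libraries (columns, by group), as log2(CPM + 0.5) minus the mean of the 3 sham libraries, with colours ending at −3 and 3. Most genes are above the sham mean in every library taken at 1 d, while Eef2k is below it.

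The largest rises of initiation factors were in Eif5a and the scaffold subunit of eIF3. Eif5a encodes the hypusine-bearing factor that helps ribosomes through difficult peptide bonds, and its level was 34.1, 40.1 and 41.4 CPM in sham and 154, 240 and 253 CPM in WT microglia at 1 d (38.5 ± 3.91 and 216 ± 53.8 CPM, SD, n = 3 each). Its log2 fold change was 2.48 ± 0.23 (SE, adjusted p = 6.7e-07), and the lowest injured library stood well above every sham library. Its paralog Eif5a2 was at 2.04, 2.05 and 2.36 CPM in sham and 1.95, 3.84 and 3.04 CPM at 1 d, and these groups overlapped. Eif3a, the scaffold of the eIF3 complex, was at 35.1, 33.5 and 36.5 CPM in sham and at 107, 154 and 153 CPM at 1 d, a log2 fold change of 1.98 ± 0.19 (adjusted p = 9.7e-07).

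The remaining eIF3 subunits had log2 fold changes from 0.54 to 1.71, and Eif3d, the cap-binding subunit, was the single one not called (0.54, adjusted p = 0.25), its sham libraries ranging from 16.6 to 39.4 CPM. Among the others, Eif3b and Eif3i, which belong with Eif3a and Eif3g to the module conserved from yeast, had log2 fold changes of 1.71 and 1.66. Eif3j1 and Eif3j2 share 99.4% of their sequence, so the division of reads between these 2 genes is uncertain, and both were called (0.82 and 1.18).

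Both subunits of the ternary complex factor that were examined rose. Eif2s1, which carries the serine that the stress kinases phosphorylate, was at 11.7, 9.64 and 14.2 CPM in sham and 29.5, 38.1 and 40.9 CPM at 1 d (log2 fold change 1.61 ± 0.18, adjusted p = 3.8e-06). Eif2s2 rose by a similar amount (1.55 ± 0.16, adjusted p = 2.3e-06), and the groups of neither gene overlapped. The 5 subunits of eIF2B, which recharges eIF2, had log2 fold changes of 0.28 to 0.96 and none passed the test. Eif2b5, the catalytic subunit, was at 7.14, 4.18 and 7.49 CPM in sham and 11.1, 15.2 and 10.5 CPM at 1 d (0.96 ± 0.48, adjusted p = 0.2), groups that did not overlap although the test was missed. For the start-codon factors, Eif1 had a log2 fold change of 0.93 ± 0.24 (adjusted p = 0.0088) and Eif1a of 1.55, while Eif5, the GTPase activator of eIF2, was at 0.21 (adjusted p = 0.38). Eif5b, which joins the subunits, rose by 1.90 on the log2 scale, and Eif6, which keeps the large subunit apart, by 1.27 ± 0.31 (adjusted p = 0.006).

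**Figure D2:**
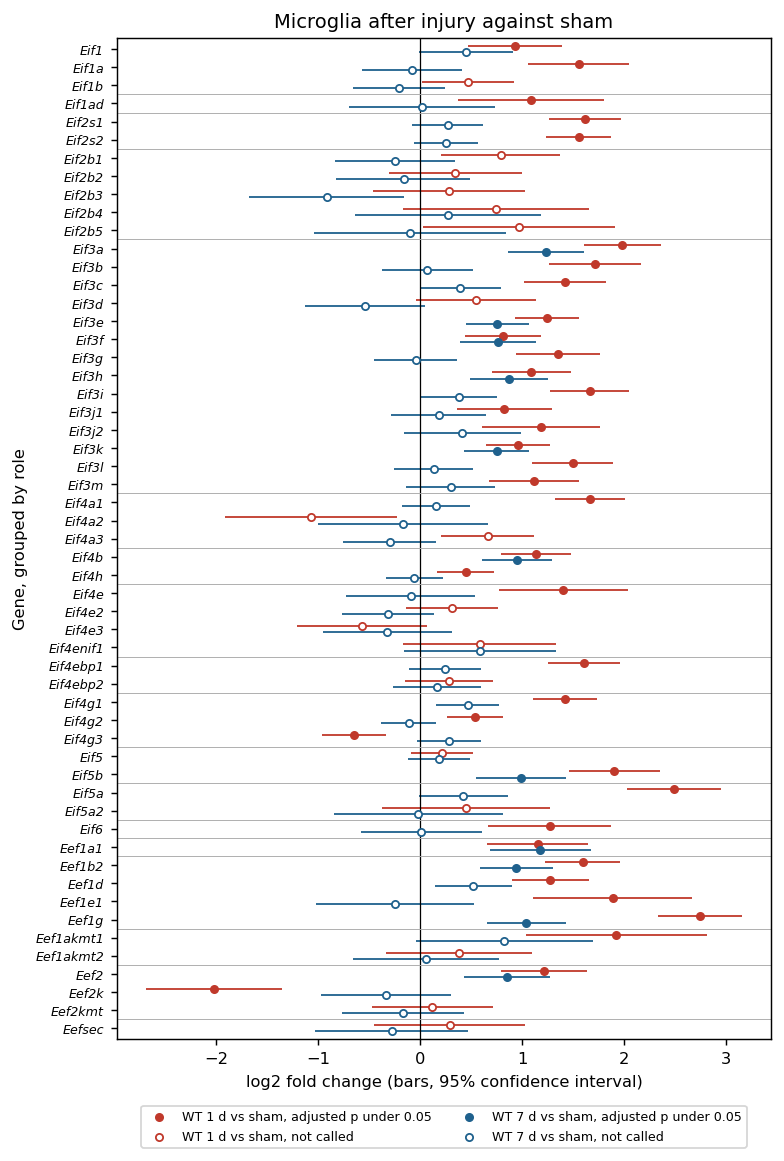
Log2 fold change (x axis) of the 55 translation factor genes over 1 CPM in WT microglia at 1 d and at 7 d, each against the same sham libraries; bars are 95% confidence intervals and filled points mark an adjusted p under 0.05. Eef1g and Eif5a lie farthest right at 1 d, and Eef2k farthest left among the called genes.

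Within eIF4F, the helicase gene Eif4a1 was at 119, 128 and 119 CPM in sham and 291, 416 and 454 CPM at 1 d (log2 fold change 1.66 ± 0.18, adjusted p = 2.2e-06). Eif4a2, the paralog that predominates in brain tissue, was at 296, 198 and 121 CPM in sham and 183, 56.9 and 53.1 CPM at 1 d, so that the groups overlapped and the test was missed (−1.07 ± 0.43, adjusted p = 0.1). The gene of the small nucleolar RNA Gm26447 lies within Eif4a2, and its own level was 138, 179 and 187 CPM in sham and 58.9, 67.2 and 73.5 CPM at 1 d. How reads were shared between these overlapping genes was not tested.

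Among the scaffolds 2 genes rose and 1 fell. Eif4g1 was at 34.6, 30.9 and 36.1 CPM in sham and 77.6, 94.3 and 99 CPM at 1 d (1.42 ± 0.16, adjusted p = 4.6e-06), whereas Eif4g3 was at 57, 41.5 and 39.7 CPM in sham and 26.8, 29.2 and 31.7 CPM at 1 d (−0.65 ± 0.16, adjusted p = 0.0069). Eif4g1 was thus the lower of this pair of genes in every sham library and the higher in every WT library at 1 d. Eif4g2, a scaffold that lacks the eIF4E binding site, rose by 0.54 ± 0.14 (adjusted p = 0.0095), and the helicase partners Eif4b and Eif4h rose by 1.13 and 0.44. With total counts in place of TMM the values of Eif4g2 and Eif4h were −0.23 and −0.33, while the median of genes over 1 CPM was −0.72, so both genes stayed above that median but not above 0.

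The cap-binding protein and its inhibitor rose side by side. Eif4e was at 9.24, 11.6 and 17.7 CPM in sham and 31.9, 32.1 and 38.1 CPM at 1 d (2.64-fold higher, adjusted p = 0.0042). Eif4ebp1, which encodes 4E-BP1, was at 8.57, 10.6 and 13.1 CPM in sham and 27.9, 34.1 and 36.3 CPM at 1 d (1.60 ± 0.18, adjusted p = 4.6e-06). In neither gene did an injured library reach down to the sham range. Eif4ebp2, the second 4E-BP, was at 27.5, 26.3 and 35.9 CPM in sham and 27.9, 44.9 and 36.1 CPM at 1 d (0.28 ± 0.22, adjusted p = 0.43), and Eif4ebp3 lay below 1 CPM in every library. The other members of the cap-binding family were not called, with log2 fold changes of 0.31 for Eif4e2 and −0.57 for Eif4e3.

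Among the elongation factors the eEF1B subunit Eef1g gave the largest change of all the called genes. Its level was 59.2, 63.1 and 68.1 CPM in sham and 327, 458 and 488 CPM at 1 d (63.5 ± 4.44 and 424 ± 85.3 CPM, SD, n = 3 each), a log2 fold change of 2.74 ± 0.21 (adjusted p = 1e-07). The other eEF1B genes Eef1b2 and Eef1d rose by 1.59 and 1.27, and Eef1e1, a scaffold of the tRNA synthetase complex, by 1.88. Eef1a1, the most abundant translation factor transcript with 25.8 to 51.2% of the counts of the whole family, was at 710, 900 and 1350 CPM in sham and 1590, 2520 and 2450 CPM at 1 d (1.15 ± 0.25, adjusted p = 0.0028). Its neuronal and muscle paralog Eef1a2 stayed below 1 CPM in every library.

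Eef2 and its kinase moved in opposite directions. Eef2 was at 85.7, 91.1 and 130 CPM in sham and 173, 260 and 276 CPM at 1 d (1.21 ± 0.22, adjusted p = 0.00044). Eef2k was at 31, 30.6 and 28.5 CPM in sham and 6.57, 7.92 and 7.69 CPM at 1 d, a log2 fold change of −2.02 ± 0.34 (adjusted p = 0.00024). The 3 libraries of each group stood close together, and no value of Eef2k at 1 d came near the sham range.

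**Figure D3:**
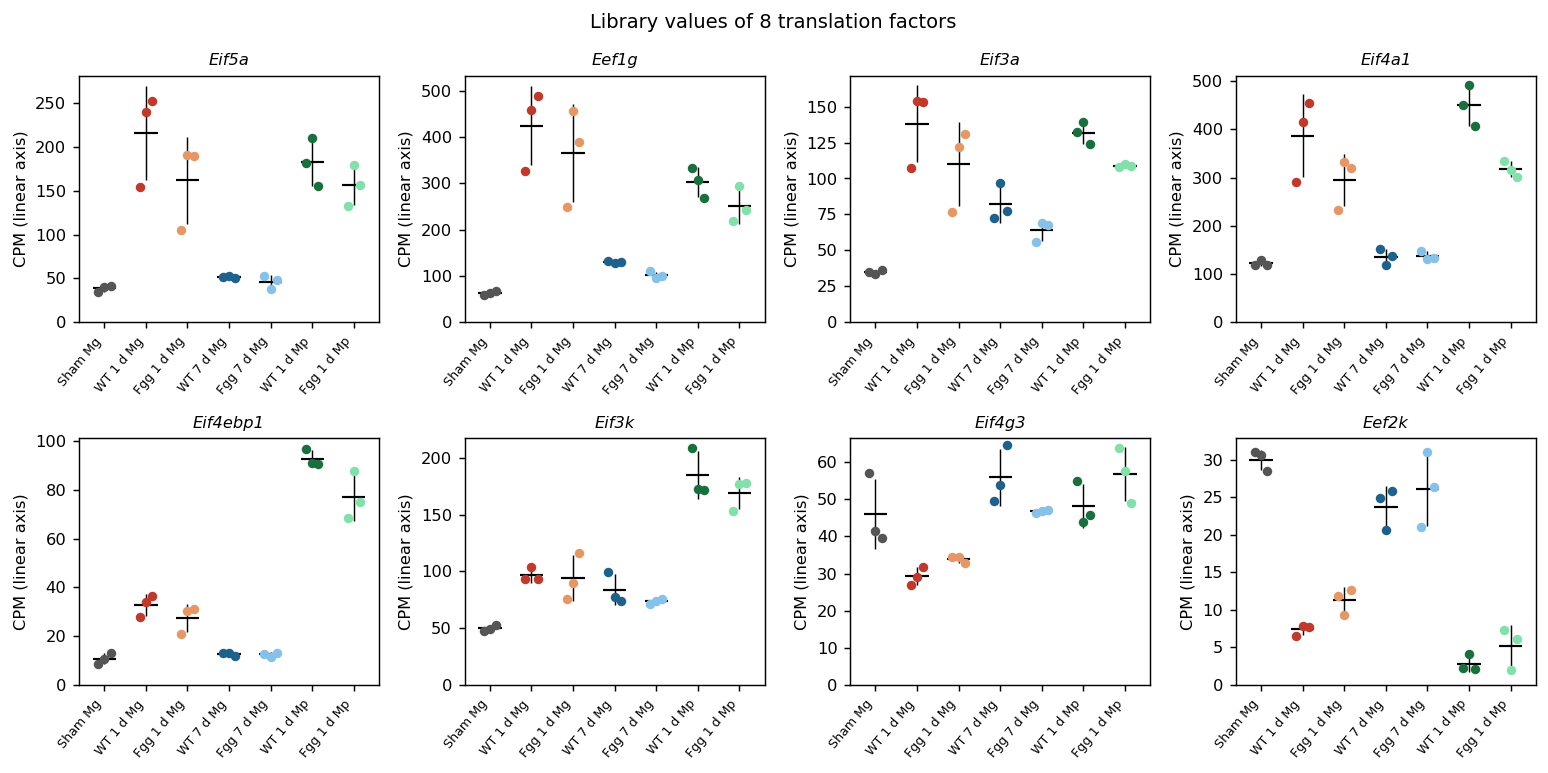
Level in CPM of 8 translation factor genes in each library of the 7 groups, with points for the 3 libraries, a bar for their mean and an error bar for the SD. Eif5a, Eef1g and Eif4a1 are high in every group taken at 1 d and lower at 7 d, Eif4ebp1 and Eif3k are highest in the Mp groups, and Eef2k runs the other way.

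These contrasts were put on 1 scale as log2 ratios of CPM within a library, which no scaling of libraries can move. The ratio of Eef2k to Eef2 was −1.47, −1.57 and −2.19 in sham and −4.72, −5.04 and −5.16 at 1 d, 9.38-fold lower. The ratio of Eif4g3 to Eif4g1 was 0.72, 0.42 and 0.14 in sham and −1.53, −1.69 and −1.64 at 1 d, 4.14-fold lower. The ratios of Eif5a2 to Eif5a, Eif4e3 to Eif4e and Eif4ebp2 to Eif4ebp1 were lower by 4.15-fold, 4.08-fold and 2.55-fold, and in all 5 ratios the groups did not overlap. That of Eif4a2 to Eif4a1 was 1.31, 0.63 and 0.02 in sham and −0.67, −2.87 and −3.09 at 1 d, 7.3-fold lower, with no overlap and a wide spread. The ratio of Eif4ebp1 to Eif4e, inhibitor to target, differed by 0.16 on the log2 scale at 1 d, with overlapping groups, and by 0.30 at 7 d, where the 0.01, 0.17 and 0.05 of WT microglia lay above the −0.11, −0.13 and −0.44 of sham. With 3 libraries against 3 the smallest p of the two-sided exact permutation test is 0.1, which none of the 40 ratio comparisons can pass (0.211 after adjustment over the 40), so these ratios are descriptions.

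**Figure D4:**
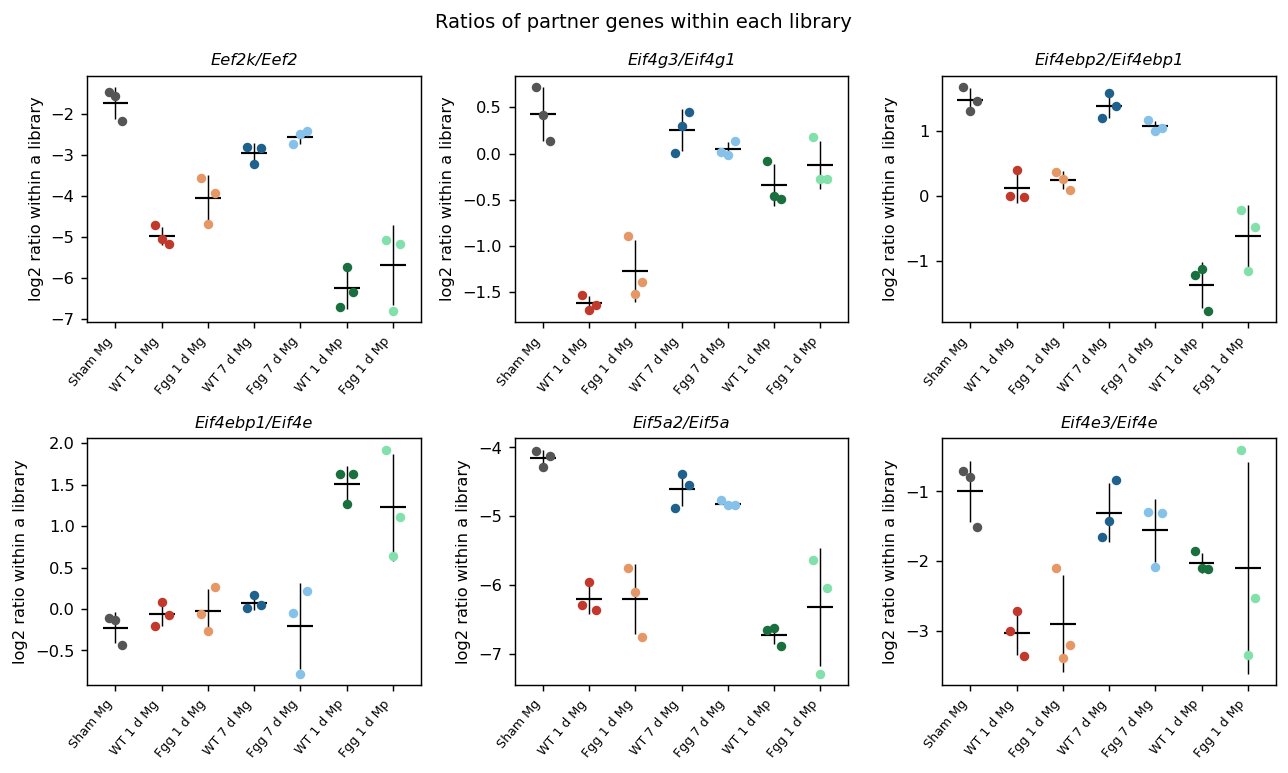
Log2 ratio of the CPM values of 6 gene pairs in each library of the 7 groups, with points for the 3 libraries, a bar for the mean and an error bar for the SD. The ratio of Eef2k to Eef2 falls from −1.74 on average in sham to −4.97 in WT microglia at 1 d, and the ratio of Eif4ebp1 to Eif4e is highest in the Mp groups.

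At 7 d a smaller set was still above sham. In WT microglia 11 of 58 genes were higher and 0 lower (2.42% of all tested genes were higher and 0.265% lower), with a median of 0.17 beside −0.02 for genes over 1 CPM. Among genes with more than 10 CPM 8.05% were higher and 0.987% lower. DESeq2 called 12, all higher (5.62% of all genes were called), and 14 had an unadjusted p under 0.05 (11.7% of all tested genes). The microglia markers summed to 8280 to 9180 CPM and the infiltrating myeloid markers to 65.2 to 627 CPM at 7 d, and their part was not tested. The 11 genes were Eif3a, Eif3e, Eif3f, Eif3h, Eif3k, Eif4b, Eif5b, Eef1a1, Eef1b2, Eef1g and Eef2. Eif3a was at 72.4, 96.8 and 77.3 CPM at 7 d (1.23 ± 0.19, adjusted p = 0.00092 against sham) and Eef1g at 133, 129 and 130 CPM (1.04 ± 0.20, adjusted p = 0.0047). Eef1a1, at 1990, 2570 and 2140 CPM, had a log2 fold change of 1.18 ± 0.25 at 7 d (adjusted p = 0.011) beside 1.15 at 1 d. Eif5a was at 51.5, 52.5 and 50.9 CPM and Eif4ebp1 at 13.1, 13.2 and 11.9 CPM at 7 d, and neither was called against sham, although every Eif5a value lay above the sham range. With total counts 1 gene was higher and 6 were lower at 7 d, with a median of −0.39 beside −0.58 for genes over 1 CPM. The count of 11 fell to 5 without sham replicate 1, to 6 without sham replicate 2 or WT 7 d replicate 1, and to 7 without WT 7 d replicate 2 or 3.

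Compared directly, 26 of 58 genes were lower and 2 higher in WT microglia at 7 d than at 1 d (6.6% and 3.7% of all tested genes), with a median of −0.71. Among genes with more than 10 CPM 22.5% were lower and 10.3% higher. The WT libraries at 1 d enter this comparison and the one against sham, so the values are set side by side here and are not independent. Eif5a fell by 2.06 on the log2 scale from 1 d to 7 d (adjusted p = 2e-05), Eef1g by 1.70 (adjusted p = 2.7e-05), Eif4a1 by 1.51 (adjusted p = 2.4e-05) and Eif4ebp1 by 1.36. Eef2k rose by 1.69 ± 0.34 (adjusted p = 0.0022), to 24.9, 20.6 and 25.8 CPM, and Eif4g3 by 0.94 (adjusted p = 0.00067). A further group differed little between the times, with log2 differences of 0.03 for Eef1a1, −0.05 for Eif3f, −0.19 for Eif4b, −0.21 for Eif3k and −0.22 for Eif3h, none of them called.

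The neighbouring parts of the translation machinery, taken from lists of other genes, differed in their counts at 7 d. Over all tested genes 10.7% were higher and 5.97% lower in WT microglia at 1 d, and 2.42% and 0.265% at 7 d. Among genes with more than 10 CPM on average these shares were 32.5% and 14.3% at 1 d, and 8.05% and 0.987% at 7 d. No list was tested against them. Of 82 cytosolic ribosomal protein genes tested 78 were higher in WT microglia at 1 d and 75 at 7 d, with medians of 1.47 and 0.98. Of 21 genes of the cytosolic aminoacyl-tRNA synthetases, which charge tRNAs, and their scaffold proteins, 17 were higher at 1 d and 0 at 7 d, with medians of 1.23 and 0.04. Without the scaffold genes Aimp1 and Aimp2, 15 of 19 were higher at 1 d. At 1 d the synthetases Eprs, Lars, Gars and Kars had log2 fold changes of 1.47, 1.48, 1.57 and 1.81. Of 24 other cytosolic factors 10 were higher and 1 lower at 1 d, among them the poly(A)-binding protein gene Pabpc1 (1.98), the ribosome recycling factor gene Abce1 (1.23) and the release factor gene Etf1 (1.53) above sham, and Paip2, an inhibitor of the poly(A)-binding protein, below it (−0.92). At 7 d 2 of these were higher and 0 lower.

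The regulators of initiation showed no common direction in their transcripts, and the lists mix genes that promote it with genes that restrain it. Over all tested genes 10.7% were higher and 5.97% lower at 1 d, and 2.42% and 0.265% at 7 d. Among genes with more than 10 CPM on average these shares were 32.5% and 14.3% at 1 d, and 8.05% and 0.987% at 7 d. Some of the listed genes lie below 10 CPM, and no list was tested against these shares. Of 24 genes of mTORC1 and MNK signalling 3 were higher and 3 lower at 1 d and 0 either way at 7 d. Larp1 (0.80), Lamtor2 (0.88) and Lamtor5 (1.11) were above sham at 1 d. Mknk1 (−0.99), the kinase of eIF4E, Pdcd4 (−2.53), an inhibitor of eIF4A, and Ddit4 (−2.35) were below it. Of 15 genes of the eIF2 kinases and the integrated stress response 3 were higher and 1 lower at 1 d, and at 7 d 1 was higher, the eIF2 kinase gene Eif2ak2 (1.39 ± 0.24, adjusted p = 0.0022), and 0 lower. At 1 d the asparagine synthetase gene Asns and the factor gene Atf5, both targets of that response, were higher (4.59 and 2.58). Their sham means were 0.318 and 0.434 CPM. Chac1 of this list was higher too (5.22, adjusted p = 0.026), with means of 0.0253 CPM in sham and 0.99 CPM at 1 d. The kinase gene Eif2ak3 was lower (3.95 ± 0.494 against 7.89 ± 0.465 CPM in sham, SD, n = 3 each). Atf4 itself was at 0.16 (adjusted p = 0.7), and Trib3 (3.86) and Ddit3 (−1.11) were not called either. Of 11 mitochondrial translation factors 4 were higher, Tufm and Gfm1 among them (1.28 and 1.35), and 1, Gfm2, was lower (−1.75), with a median of 0.03 over the list.

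To ask whether the fibrin motif mattered for these genes, microglia of Fgg390-396A mice were compared with WT microglia at the same time. At 1 d no translation factor differed by edgeR or by DESeq2 (0.042% of all tested genes were called by edgeR and 0.353% by DESeq2). By edgeR 2 of 58 had an unadjusted p under 0.05 (5.08% of all tested genes did). The median difference was −0.18, beside 0.02 for genes over 1 CPM, and 46 of 58 values were below 0. With total counts the median was 0.14 beside 0.33 for genes over 1 CPM, so the genes stayed below that median by a like amount. Microglia markers summed to 6030 to 7550 CPM in Fgg390-396A microglia at 1 d, above the 4250 to 5940 CPM of WT, and their part was not tested. Single genes overlapped WT. Eif5a was at 105, 191 and 190 CPM in Fgg390-396A microglia (−0.41, 95% confidence interval −0.85 to 0.02) and Eef1g at 249, 457 and 390 CPM (−0.21, interval −0.60 to 0.17). In 3 genes every Fgg390-396A library lay above every WT library and in 0 below (5.73% and 2.99% of all tested genes). The 3 were Eef2k at 11.9, 9.31 and 12.6 CPM, Eef2kmt and Eif4g3, with unadjusted p-values of 0.08, 0.098 and 0.2 and adjusted p-values of 0.89, 0.89 and 0.9.

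Set against the same sham libraries, Fgg390-396A microglia at 1 d had 28 genes higher and 1 lower (7.6% and 2.19% of all tested genes), with a median of 0.87. Among genes with more than 10 CPM 24.7% were higher and 6.65% lower. Microglia markers summed to 6030 to 7550 CPM at 1 d and 8830 to 10200 CPM at 7 d in this genotype, beside 12200 to 13800 CPM in sham. Eef1g was at 2.53 ± 0.21, Eif5a at 2.07 ± 0.23, Eif3a at 1.65 ± 0.19 and Eif4ebp1 at 1.35 ± 0.18, and Eef2k was the gene that fell (−1.41 ± 0.33, adjusted p = 0.0075). At 7 d 2 genes were higher and 0 lower than sham (0.831% and 0.0546%), Eef1b2 (0.94 ± 0.18, adjusted p = 0.015) and Eif3a (0.87 ± 0.19, adjusted p = 0.027), while 13 had an unadjusted p under 0.05 (7.59% of all tested genes) and DESeq2 called 9 (2.54% of all genes). Without Fgg390-396A 7 d replicate 2 or 3 the 7 d count was 0, and without sham replicate 1 or 2 it was 1. Between 1 d and 7 d 17 genes fell and 1, Eef2k, rose in Fgg390-396A microglia (4.56% and 1.08% of all tested genes), with Eef1g falling by 1.85 and Eif5a by 1.82. Since WT and Fgg390-396A microglia were compared with 1 set of sham libraries, the difference in these counts is no test of genotype. The interaction of genotype with time gave 0 called genes and 0 with an unadjusted p under 0.05 among the 58, and DESeq2 gave 0. Over all tested genes edgeR called 0% for this interaction and DESeq2 0.108%, and 2.74% had an unadjusted p under 0.05 by edgeR.

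At 7 d the genotypes again gave 0 called genes by edgeR and by DESeq2 (0.0378% and 0.314% of all tested genes were called). By edgeR 2 had an unadjusted p under 0.05 (3.34% of all tested genes did), and the median was −0.09. In 1 gene the Fgg390-396A libraries all lay above and in 6 all below WT (5.8% and 5.28% of all tested genes). In the CD45hi cells edgeR called 0 (0.206% of all tested genes were called) with 6 at an unadjusted p under 0.05 (11.5% of all tested genes), and DESeq2 called 2 lower, Eif2b1 and Eif1b (2.67% of all genes were called by DESeq2). Eif2b1, the regulatory subunit of eIF2B, was at 13.3, 8.79 and 9.11 CPM in WT and 3.21, 3.97 and 4.95 CPM in Fgg390-396A cells (−1.36 ± 0.30, adjusted p = 0.072 by edgeR). Eif1b, a paralog of the start-codon factor Eif1, was at 52.8, 36.5 and 35.7 CPM in WT and 18.5, 27.9 and 23.4 CPM in Fgg390-396A cells (−0.84 ± 0.23, adjusted p = 0.17 by edgeR). In both genes the groups did not overlap, as in 5 further genes that were lower and 1 that was higher (4.85% and 3.16% of all tested genes). The interaction of genotype with cell type called 0 of the 58 by edgeR and by DESeq2 (0.0252% and 0.59% of all tested genes were called). By edgeR 2 were at an unadjusted p under 0.05 (8.37% of all tested genes were).

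To ask how the sorted populations differed, Mp and microglia libraries of the same genotype were compared at 1 d. Here the sort gate, the number of cells and the cell type go together and cannot be told apart, and all 10 microglia markers were lower in Mp libraries. In WT 6 of 58 genes were higher in Mp and 3 lower (7.56% and 8.12% of all tested genes), with a median of −0.05 beside −0.09 for genes over 1 CPM. In Fgg390-396A cells 11 were higher and 2 lower (9.33% and 12.1%), with a median of 0.01 beside −0.15. Among genes with more than 10 CPM 20.7% were higher and 15.5% lower in WT Mp, and 23.6% and 19.1% in Fgg390-396A Mp. Some of the 58 translation factors lie below 10 CPM, so their counts and these shares are not like for like. With ribosomal RNA left out of the library totals and no TMM 4 were higher and 10 lower in WT (median −0.34 beside −0.38 for genes over 1 CPM) and 5 higher and 8 lower in Fgg390-396A cells (−0.33 beside −0.50). Without WT Mp replicate 1 the WT count was 5 in all, and without Fgg390-396A microglia replicate 3 that in Fgg390-396A cells was 8. Eif4ebp1 gave the smallest adjusted p in both genotypes. It was at 96.6, 90.9 and 90.6 CPM in WT Mp libraries, above 27.9, 34.1 and 36.3 CPM in WT microglia (2.83-fold higher, adjusted p = 8.1e-06), and at 68.3, 87.7 and 74.8 CPM in Fgg390-396A Mp libraries (log2 difference from microglia 1.49, adjusted p = 7.2e-06). The levels of Eif4ebp1 thus ran from sham and 7 d microglia, which overlapped, through 1 d microglia to Mp, with no overlap between these 3 steps.

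Eif3k, a peripheral eIF3 subunit, was at 209, 173 and 172 CPM in WT Mp and 92.9, 104 and 92.9 CPM in WT microglia (0.93, adjusted p = 0.00039), and Eif5 was at 85.2, 93.8 and 119 CPM in WT Mp (0.84, adjusted p = 0.00065). Eif1, Eif3h and Eif4g3 were also higher in Mp libraries in both genotypes. In WT cells Eif3h and Eif4g3 were not called with ribosomal RNA left out of the totals. In Fgg390-396A cells Eif3h, Eif4g3 and Eif5 were not called with total counts or with ribosomal RNA left out. Eif3k was not called there with total counts, nor were Eif3h and Eif5 with the compared groups only. On the low side Eef2k was at 2.23, 4.16 and 2.12 CPM in WT Mp (2.63-fold lower, adjusted p = 0.0077), and in Fgg390-396A cells the difference was −1.14 (adjusted p = 0.018). With the compared groups only Eef2k was not called in Fgg390-396A cells. In WT cells Eif4g1 (−0.57, adjusted p = 0.017) and Eif2b4 (−1.42, adjusted p = 0.049) were lower as well, but Eif4g1 was not called with the compared groups only, and Eif2b4 was not called with a replicate block, DESeq2 size factors or scaling on protein-coding genes. The ratio of Eif4ebp1 to Eif4e, which overlapped between sham and injured microglia at 1 d, was 2.98-fold higher in WT Mp than in WT microglia. Eif5a at 182, 210 and 156 CPM and Eif3a at 132, 139 and 124 CPM in WT Mp libraries overlapped WT microglia at 1 d.

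**Figure D5:**
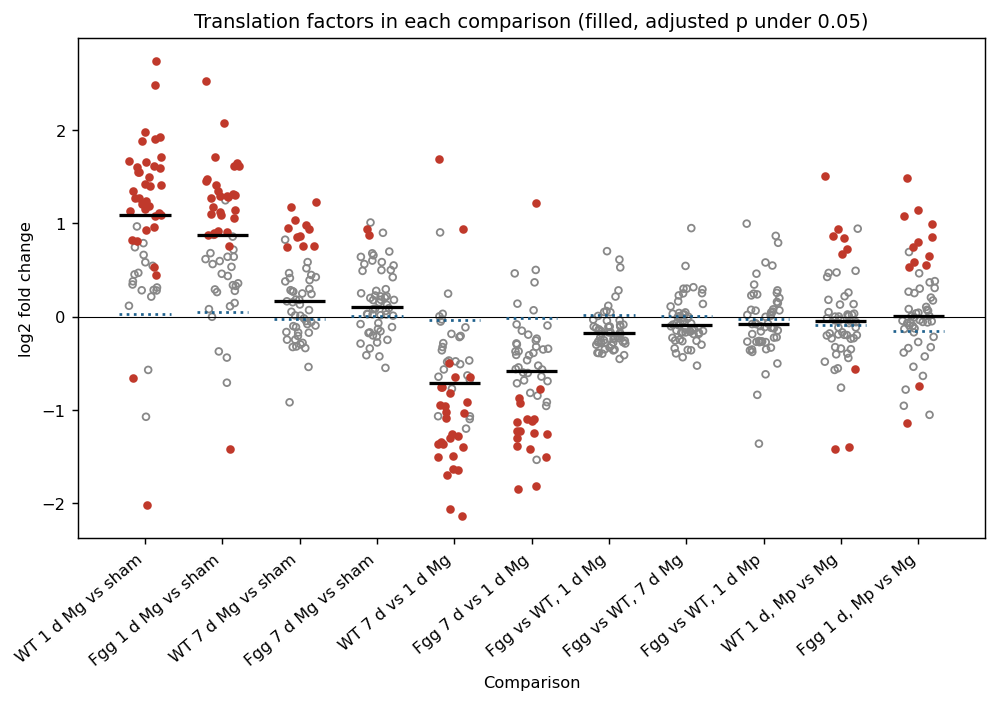
Log2 fold change (y axis) of the 55 translation factor genes over 1 CPM in each of the 11 comparisons, 1 point per gene, with a black line at the median of all 58 genes tested and a dotted line at the median of genes over 1 CPM. The black line lies at 1.08 for WT microglia at 1 d against sham, at −0.71 for 7 d against 1 d, at −0.18 for the genotypes at 1 d and at −0.05 for WT Mp against microglia.

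Several of the genes share sequence with copies elsewhere in the genome, and the division of reads between them is uncertain. Eif4a1 matched the pseudogene Eif4a-ps4 at 99.9% identity, Eef1g matched Gm4366 at 99.6%, Eif2s2 matched Gm9892 at 99.5%, Eef1b2 matched Gm43712 at 98.9%, Eef1a1 matched Gm13456 at 98.6% and Eif2s1 matched Gm12734 at 96.8%. With the counts of such copies added, which joined Eif3j1 and Eif3j2 into 1 gene, 36 of 57 were called in WT microglia at 1 d, beside 37 of 58 without.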

How the data were processed

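RNA from sorted myeloid cells of mouse brain was sequenced in 21 libraries. The authors aligned the reads to GRCm38 with STAR and estimated gene abundances with salmon, and the submitters' processing notes also name R 4.2.0 and DESeq2 1.36.0. The annotation release is not given in the sources used here, and 45143 of the 45706 genes were matched to GENCODE M21 (563 were not). The authors deposited 1 table of estimated counts scaled for transcript length, with values that are not whole in 56.8% of genes, and these expected counts were rounded before testing. The filter kept genes that summed to at least 5 counts across the 21 libraries. All 21 libraries entered a single edgeR 4.0.16 quasi-likelihood fit with TMM factors (R 4.3.3), and p-values were adjusted by Benjamini-Hochberg over the 23815 genes tested, with a call at 0.05. DESeq2 1.42.0, other scalings, filters, a replicate block, leaving out each library and adding near-identical copies (95% identity by BLAST+ 2.17.0) were alternatives. Scripts were tested on simulated data for WT microglia at 1 d against sham, with 200 genes over 1 CPM changed. At a log2 fold change of 1 edgeR recovered 9 of them (4.5%) and DESeq2 56 (28%), with 0 and 27 other genes called. At a change of 2 they recovered 62.5% and 73.5%, with 3 and 53 others called. With no gene changed edgeR called 0 and DESeq2 15. A gene that was not called may therefore still differ. The 200 genes were drawn at random, while the data gave 2548 genes higher and 1422 lower in this comparison. The recovered shares need not hold for the translation factors. Ratios within a library used a pseudocount of 0.5 counts and two-sided exact permutation tests. The genes and lists were chosen with earlier results of these data known. Named genes were up to 6 in each direction per comparison with the smallest adjusted p among those called with a value in every library, 16 fixed factors (Eif4ebp1, Eif4ebp2, Eif4e, Eif4a1, Eif4a2, Eif4g1, Eif4g2, Eif2s1, Eif2b5, Eif1, Eif3a, Eif5a, Eif6, Eef1a1, Eef2 and Eef2k), and up to 4 per list of other genes; others named were chosen after their values were seen.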

Additional observations from a re-analysis of the deposited data

How the results depend on the processing

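In WT microglia at 1 d against sham, 22 genes were called with total counts as library size (17 higher and 5 lower, 19 of them also called with TMM), and the median of the 58 genes was then 0.32 beside −0.72 for genes over 1 CPM. Ribosomal RNA left out of the total gave 27 higher and 3 lower. Eif4g2 was at −0.23 with total counts, and Eif4h at −0.33 with total counts and −0.025 without ribosomal RNA. In WT microglia at 7 d the count was 7 with total counts, 5 without ribosomal RNA and 3 when a log2 change beyond 1 in size was also asked for, and between 5 and 10 with 1 library left out. In Fgg390-396A microglia at 7 d it was 9 with DESeq2, 4 with scaling on protein-coding genes, 0 with total counts, 5 with edgeR's own filter, 1 with the compared groups only, 0 with the same fold limit, 5 at an adjusted p under 0.1, and 0 to 3 with 1 library left out (0 without Fgg390-396A 7 d replicate 2 or 3, 1 without sham replicate 1 or 2). That fold limit left 18 between 7 d and 1 d in WT, 3 between WT Mp and microglia and 4 between Fgg390-396A Mp and microglia. Between WT Mp and microglia the count was 14 without ribosomal RNA in the total (4 higher and 10 lower) and 5 to 9 with 1 library left out (5 without WT Mp replicate 1), and for Fgg390-396A it was 6 with the compared groups only and 8 to 14 with 1 library left out (8 without Fgg390-396A microglia replicate 3). Between the genotypes in Mp it was 2 with DESeq2, 1 at an adjusted p under 0.1, and 0 to 1 with 1 library left out (1 without Fgg390-396A Mp replicate 3). The cause of these shifts was not tested.

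With 1 library left out, the difference between groups in the log2 ratio of Eif4a2 to Eif4a1 ranged from −0.558 to 0.086 at 7 d against sham and from −0.451 to 0.759 between WT Mp and microglia, where adding near-identical copies gave 0.003. That of Eef1a2 to Eef1a1 ranged from −2.533 to 0.125 at 1 d and from −1.402 to 0.553 between genotypes at 1 d. Between genotypes at 1 d, that of Eif5a2 to Eif5a ranged from −0.226 to 0.28 (−0.002 with a pseudocount of 5), that of Eif4e3 to Eif4e from −0.265 to 0.378, that of Eif4ebp1 to Eif4e from −0.094 to 0.162 and that of Eif3j2 to Eif3j1 from −0.212 to 0.226. The ratio of Eif3j2 to Eif3j1 between WT Mp and microglia ranged from −0.356 to 0.082, and that of Eif4ebp2 to Eif4ebp1 at 7 d from −0.19 to 0.005.

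The labels give replicate numbers but no shared animal, litter or day. The deviations of same-numbered libraries had correlations from −0.083 to 0.336. Between WT microglia and WT Mp at 1 d same-numbered values were 0.130, 0.161 and 0.021, and different-numbered ones ran from −0.170 to 0.068. Between WT and Fgg390-396A microglia at 1 d, which come from different animals, same-numbered values were 0.336, 0.123 and 0.087. The different-numbered ones there ran from −0.211 to 0.103. Not every library correlated best with the libraries of its own number. These values cannot decide whether same-numbered libraries shared animals or a day of handling, and the main fit took all libraries as unpaired. A fit with the replicate number as a block called 35 higher and 3 lower in WT microglia at 1 d, 11 and 0 at 7 d, 29 and 1 in Fgg390-396A microglia at 1 d, and 3 and 0 at 7 d. Between the genotypes the same fit called 0 in microglia at 1 d, in microglia at 7 d and in Mp. In WT microglia at 1 d the count with 1 library left out was between 33 and 37. Eef1a2, Eef1akmt3 and Eif4ebp3 held totals of 51, 77 and 90 counts over the 21 libraries. Beside a limit of 3 counts in a single library these totals are low, and the fold changes of these genes are not interpreted.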
